A study of Mus musculus with 4 samples.

Results

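Expression of 10 imprinted genes was measured in mouse islets at low and high glucose. They are the 3 long noncoding RNAs of the *Meg3* locus (*Meg3*, *Rian* and *Mirg*) with their coding neighbour *Dlk1*, the pair *H19* and *Igf2*, and *Cdkn1c*, *Plagl1*, *Peg3* and *Grb10*. Members were taken by symbol from 24012 gene symbols in the table, and where a symbol had several of the 33923 deposited entries, the entry with the highest mean over the libraries was kept. All 10 were found, with 20 entries of which 16 held distinct values. Islets were isolated from C57bl6 wild type male mice of 3 months and pooled, kept overnight at 11 mM glucose and held at 2.8 mM glucose for 2 h. They then stayed at 2.8 mM glucose or were moved to 16.8 mM, and 2 RNA-seq libraries per concentration were made from total RNA with a TruSeq RNA v2 kit. The series description gives 12 h for both concentrations, but in the labels the low glucose samples have 2 h and the high glucose samples 12 h, and if the labels hold, time and glucose cannot be told apart. The islets came from a single pool, and nothing says that the libraries of a group are separate animals, so each p-value measures the spread between these libraries only. The cell type is labelled as mixed, and each value is an average over all cells of the islet, in which fewer cells of a type and less RNA per cell cannot be told apart.

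Imprinted genes are expressed mainly from the allele inherited from 1 parent. They often lie in clusters in which a differentially methylated region sets the active allele of several neighbours, and maternally expressed noncoding RNAs such as *Meg3* and *H19* share their clusters with paternally expressed growth genes such as *Dlk1* and *Igf2*. Many of these genes act on growth, and in islets the *Meg3* locus is known for a cluster of microRNAs expressed in endocrine cells. The data do not separate the alleles, so the values below are sums over both.

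The deposited values are RPKM, reads scaled to the length of a transcript and to the depth of its library. Recovered depth was between 50800000 and 60710000 reads per library, and 1 read in a stretch of 1 kb was worth between 0.0165 and 0.0197 RPKM. The study's methods name exons, but taking the length of a gene as its reference span with introns turned between 58.3% and 60.05% of the values that came to under 30 reads in a library into whole reads within 0.05, and not the others. For 6 of the 10 genes the span was tuned to within 15 bases of an annotated one to give whole reads. For *Dlk1* the spans tried included any annotated start joined to any annotated end, so its span may match no single transcript. *Meg3*, *Rian* and *Peg3* took the annotated span, and *Grb10* that of a transcript that both its entries allow. Whole reads were not checked for these. Levels of the 10 genes were read as per kilobase of span, which would include reads of RNAs inside that span. Libraries were compared as log2(RPKM + 0.5) in limma, which tested the 7867 transcripts that averaged 1 RPKM or more, with p-values adjusted by Benjamini-Hochberg. Over these transcripts 33.4% passed an adjusted p of 0.05, 10.7% higher and 22.8% lower at 16.8 mM, and the median log2 change was -0.11. The share of calls that were higher was 31.9% as deposited, 44.1% after median centring and 42.3% after quantile normalization. Markers of the islet cells were present: beta cell markers summed to 20560 and 22910 RPKM at 2.8 mM and to 40960 and 43730 RPKM at 16.8 mM, and 6 of 8 were higher at 16.8 mM. Alpha cell markers summed to between 1665 and 2172 RPKM at 2.8 mM and between 1486 and 2114 RPKM at 16.8 mM. The 7 acinar markers summed to 80.7 and 235.9 RPKM at 2.8 mM and 199.8 and 423 RPKM at 16.8 mM, higher in replicate 2 of each group. The 3 duct markers summed to 19.7 and 16.5 RPKM at 2.8 mM and to 27.2 and 33.8 RPKM at 16.8 mM, and 1 of the 2 tested, *Spp1*, was higher (log2 change 0.67, limma, adjusted p 0.0358). The 2 delta cell markers summed to 588.9 and 440.6 RPKM at 2.8 mM and to 693.3 and 687.1 RPKM at 16.8 mM, and 0 of them passed. The part of these cell markers in the results below was not tested.

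Of the 10 genes, 5 reached the minimum and 4 of these were higher at 16.8 mM glucose, namely *Meg3*, *Rian*, *Mirg* and *H19* (limma, adjusted p under 0.05, against the 10.7% of all transcripts that were higher). None of the 5 was lower, also at an unadjusted p of 0.05. The fifth, *Peg3*, did not pass. Of the reads of *H19*, between 97.2% and 100% were counted over *Mir675*, a hairpin inside it, so its rise is not shown for the rest of the gene. *Mirg* and *H19*, with means of 0.843 and 0.987 RPKM at 2.8 mM, reached the minimum only through their 16.8 mM libraries. *Grb10*, with a mean of 0.899 RPKM at 2.8 mM, was lower at 16.8 mM and stayed under the minimum. The minimum thus favours rises among genes near 1 RPKM. With 1 RPKM required in every library, 3 members were tested and 2 were higher. *Igf2*, *Grb10*, *Dlk1*, *Plagl1* and *Cdkn1c* lay under 1 RPKM on average and were not tested in that fit. The minimum is per kilobase of span with introns, so a gene with a long span can miss it with many reads. *Grb10*, over 97463 bases, held between 2342 and 5350 reads in a library. *H19*, over 2614 bases, was tested on between 142 and 293 reads. When reads were recovered for all 10 genes and compared with limma's voom method, which weighs each value by the precision expected at its read number, 7 of the 10 passed, 5 higher and 2 lower, where 41.4% of 15835 genes passed, 13% higher and 28.4% lower. Genes entered that fit from 20 reads on average. The additional genes were *Igf2*, which was higher, and *Cdkn1c* and *Grb10*, which were lower. Without a minimum, limma called 3 of the 10, 2 higher and 1 lower, where 9.13% of 28047 transcripts were called, 2.96% higher and 6.17% lower. The 2 groups of libraries did not overlap for 9 of the 10 genes, all but *Peg3*, and for 59.3% of all genes with a read.

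**Figure D1:**
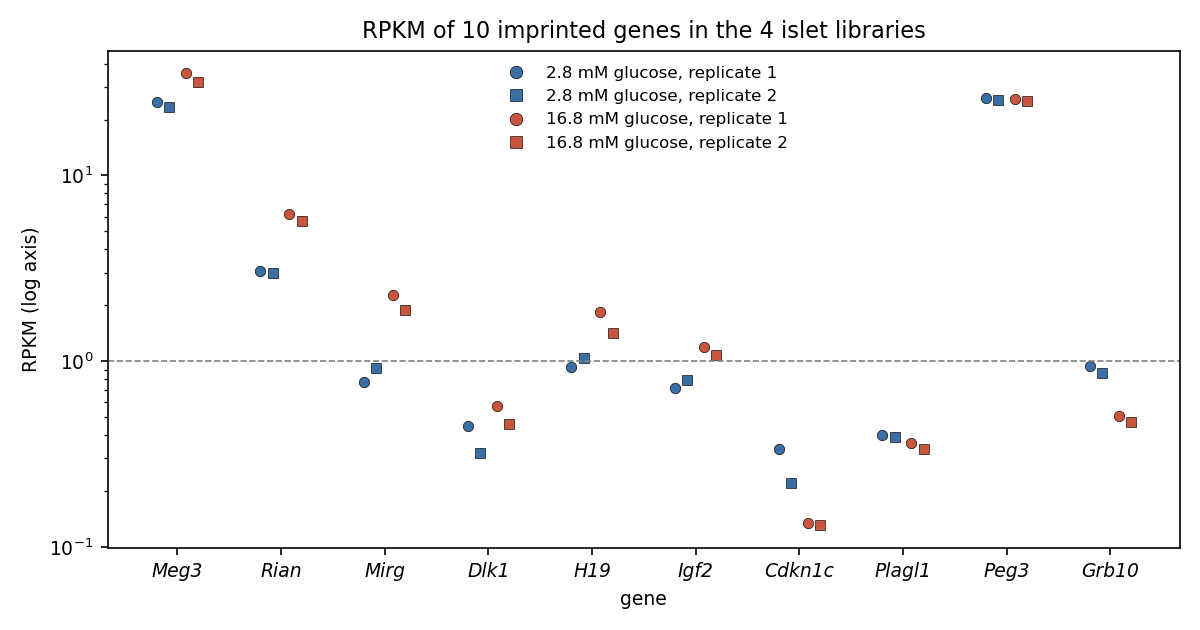
RPKM on a log axis for each of the 10 genes in the 4 libraries, with circles for replicate 1, squares for replicate 2, blue for 2.8 mM and red for 16.8 mM glucose. The dashed line is the minimum mean of 1 RPKM, and *Meg3*, *Rian*, *Mirg*, *H19* and *Igf2* lie higher in both red symbols while *Grb10* and *Cdkn1c* lie lower.

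Per kilobase of span, *Meg3* and *Peg3* were far above the other 8. At 2.8 mM the *Peg3* values of 25.5 and 26.1 RPKM lay above the *Meg3* values of 23.5 and 24.8 RPKM, and at 16.8 mM the order was the opposite. *Rian* came next at both concentrations. Below it, the levels of *H19*, *Grb10*, *Mirg* and *Igf2* at 2.8 mM lay between 0.721 and 1.05 RPKM and neighbours in that order overlapped, while at 16.8 mM *Mirg* lay above *H19*, *H19* above *Igf2* and *Igf2* above *Grb10* in every library. *Dlk1* and *Grb10* overlapped at 16.8 mM, and *Cdkn1c* had the lowest mean of the 10 genes, 0.205 RPKM over the 4 libraries.

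*Meg3* is a long noncoding RNA of the maternal allele on chromosome 12, at chr12:110779211-110809936 on the forward strand of NCBI build 37. It was the most abundant of the 10 genes, with a mean over the 4 libraries above that of 98.6% of gene symbols. The 250 bases before its start are given with those of *Peg3*, because these are the most abundant members and both windows hold the palindrome TGACGTCA, the cAMP response element, given in capitals. The sequences are from RefSeq, build GRCm38.p6, 5′ to 3′ on the strand of the gene.
*Meg3*, chr12:109540746-109540995, forward strand: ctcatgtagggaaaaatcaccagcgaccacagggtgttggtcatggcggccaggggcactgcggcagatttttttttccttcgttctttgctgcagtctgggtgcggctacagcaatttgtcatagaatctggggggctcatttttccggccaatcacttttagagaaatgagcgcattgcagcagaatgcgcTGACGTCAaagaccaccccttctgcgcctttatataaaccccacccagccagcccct
*Peg3*, chr7:6730420-6730669, reverse strand: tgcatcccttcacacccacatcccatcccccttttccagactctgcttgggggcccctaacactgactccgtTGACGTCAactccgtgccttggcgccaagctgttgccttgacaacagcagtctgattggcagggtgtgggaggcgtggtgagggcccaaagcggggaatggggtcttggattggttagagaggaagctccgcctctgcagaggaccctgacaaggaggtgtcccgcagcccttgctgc
The element begins 57 bases before the start of *Meg3* and 178 bases before that of *Peg3*. RefSeq windows of 250 bases before to 50 bases after a start were at hand for 8 of the 10 genes, not for *H19* and *Cdkn1c*. On either strand TGACGTCA was in the windows of 2 of these 8 genes and in 1.79% of 32851 windows of all genes, and TATAAA, the TATA box, was in that of *Meg3* alone among the 8 and in 13.6% of all windows. CACGTG, an E box, was in the window of *Plagl1* alone among the 8 and in 7.15% of all windows. A match says only that the letters are there.

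*Meg3* was measured at 24.8 and 23.5 RPKM in replicates 1 and 2 at 2.8 mM and at 35.5 and 31.7 RPKM at 16.8 mM. Both 16.8 mM libraries were above both 2.8 mM libraries, by a ratio of means of 1.39. The log2 change was 0.47 (SE 0.13) with an adjusted p of 0.0303 in limma. The other entries of *Meg3* gave 0.46 and 0.49, with adjusted p of 0.0338 and 0.0264. The call rested on both 16.8 mM libraries: the adjusted p was 0.197 without replicate 1 and 0.0918 without replicate 2, with log2 changes of 0.39 and 0.55, and it was 0.072 without a minimum RPKM. The recovered reads were 44502 and 37481 at low glucose and 66152 and 49519 at high glucose, so counting error was small for this gene.

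*Rian*, the host of a cluster of small nucleolar RNAs, lies beyond *Meg3* at chr12:110842155-110899919. It was at 3.06 and 3.00 RPKM at 2.8 mM and at 6.17 and 5.70 RPKM at 16.8 mM. The 2 groups lay far apart relative to the distance between replicates, and the level at 16.8 mM was 1.96 times that at 2.8 mM. The log2 change was 0.87 (SE 0.10) with an adjusted p of 0.00129 in limma, and *Rian* passed under every setting tried.

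*Mirg*, the host of a cluster of microRNAs at chr12:110973191-110987665, was the gene of the locus with the largest ratio. It was at 0.768 and 0.919 RPKM at 2.8 mM and at 2.28 and 1.88 RPKM at 16.8 mM. Both high glucose libraries lay above both low glucose libraries, with a ratio of means of 2.47. The log2 change was 0.94 (SE 0.11) with an adjusted p of 0.00129 in limma, and 1.31 (SE 0.13) on the recovered reads, which were 650 and 691 at 2.8 mM and 2006 and 1385 at 16.8 mM. The added 0.5 RPKM, close to the level of *Mirg*, makes the former smaller.

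Relative to *Meg3* in the same library, *Rian* stood at 12.3% and 12.8% at 2.8 mM and at 17.4% and 18.0% at 16.8 mM, per kilobase of span. *Mirg* stood at 3.10% and 3.91% of *Meg3* at 2.8 mM and at 6.44% and 5.94% at 16.8 mM. Both ratios were thus higher in the 2 libraries of high glucose, by 0.49 and 0.83 on the log2 scale, against pooled standard deviations of 0.03 and 0.18 between replicates. An exact two-sided permutation test over 4 libraries gave p = 0.333 for each, which is the smallest p that 6 regroupings allow. *Mirg* relative to *Rian* was at 25.1% and 30.7% at 2.8 mM and at 37.0% and 33.1% at 16.8 mM, with the same exact permutation p of 0.333. These 3 differences were smaller when 0.5 RPKM was added to both RNAs first, at 0.40, 0.47 and 0.075 on the log2 scale.

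*Dlk1*, at chr12:110691033-110701546 ahead of *Meg3*, encodes a transmembrane protein of the Notch ligand family and is expressed from the paternal allele. It was at 0.448 and 0.321 RPKM at 2.8 mM and at 0.577 and 0.458 RPKM at 16.8 mM, from 259 and 165 reads and 346 and 230 reads. The groups were barely apart, since replicate 2 at 16.8 mM lay next to replicate 1 at 2.8 mM. This was a log2 change of 0.20 with an adjusted p of 0.353 in limma without a minimum, and 0.44 with an adjusted p of 0.0839 in voom. On log2(RPKM + 0.5) it was 0.31 without replicate 1 at 2.8 mM and 0.10 without replicate 2 at 2.8 mM. The ratio of *Meg3* to *Dlk1* was 55.3 and 73.0 at 2.8 mM and 61.5 and 69.2 at 16.8 mM, which overlapped (exact permutation p = 1).

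The list of host and coding genes of the domain held *Begain*, *Rtl1*, *Dio3* and *Dio3os* in addition. Of its 8 genes 3 were tested and 3 were higher, the 3 long noncoding RNAs, with a median log2 change of 0.87 against -0.11 over all transcripts. Of all transcripts 10.7% were higher, and *Mirg* reached the minimum only through its 16.8 mM libraries. *Rtl1*, a paternally expressed gene derived from a retrotransposon, was at 0.144 and 0.324 RPKM at 2.8 mM and at 0.296 and 0.357 RPKM at 16.8 mM, so its groups overlapped. *Dio3*, the deiodinase that inactivates thyroid hormone, was listed at 0 in both libraries at 2.8 mM and at 0.0441 and 0.0211 RPKM at 16.8 mM. *Begain* and *Dio3os* had means of 0.00825 and 0.00813 RPKM.

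The table has entries for small RNAs of the locus as well, and all 58 microRNA hairpins that RefSeq places once in it were found, as were 7 of its 19 small nucleolar RNAs. *Mir1906-1*, also inside *Meg3*, has a copy on the X chromosome and was left out. The libraries are not made for RNAs as short as a mature microRNA, and host RNA and precursor cannot be told apart in a hairpin entry. Whether each read counted over a hairpin lies in it was not tested, so these reads do not by themselves show RNA at that stretch. The hairpin with the most reads inside each host is named here, *Mir770* for *Meg3*, *Mir1188* for *Rian* and *Mir3072* for *Mirg*, with its mature sequences from RefSeq (build GRCm38.p6, 5′ to 3′) and the seed, bases 2 to 8, in capitals.
mmu-miR-770-5p: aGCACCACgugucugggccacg
mmu-miR-770-3p: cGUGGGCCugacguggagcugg
mmu-miR-1188-5p: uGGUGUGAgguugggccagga
mmu-miR-1188-3p: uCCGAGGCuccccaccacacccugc
mmu-miR-3072-5p: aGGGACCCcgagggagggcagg
mmu-miR-3072-3p: uGCCCCCUccaggaagccuucu
All 6 seeds differ, so these microRNAs form no seed family among themselves.

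Of the 65 small RNA entries, 27 had a mean of at least 1 RPKM. Of these 19 were higher and 1 was lower at 16.8 mM in limma, with a median log2 change of 0.89, against 10.7% higher and a median of -0.11 over all transcripts tested. These counts partly follow from the minimum. *Mir154*, *Mir496a* and *Mir134* were under 1 RPKM in both 2.8 mM libraries and entered through 16.8 mM. Hairpins between *Rian* and *Mirg* that were lower, apart from *Mir299b*, stayed under the minimum. In voom 12 entries were tested, 11 higher and 0 lower, against 13% of all genes higher. Inside the hosts the hairpins moved with them: the 3 within *Rian*, the single 1 within *Meg3* and 7 of 10 within *Mirg* were higher. The 7 small nucleolar RNAs, taken by their place between *Dlk1* and *Dio3*, were higher too. The annotation used for the members placed *AF357355* inside *Rian*, and the others were not shown to lie there. Entries inside a host share reads with it and are not independent measurements of the locus. *Mir770* held 283 and 217 reads at 2.8 mM against 472 and 307 at 16.8 mM, with a log2 change of 0.60 (limma, adjusted p 0.0313). *Mir1188* held 18 and 11 reads at 2.8 mM against 46 and 35 at 16.8 mM, and both groups were apart. *Mir3072* held 14 and 24 reads at 2.8 mM against 40 and 27 at 16.8 mM, with a log2 change of 0.75 that did not pass (limma, adjusted p 0.0604).

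The 7 small nucleolar RNA entries of the locus were higher in both libraries at 16.8 mM, each with a ratio of means between 1.68 and 2.37. These RNAs are processed from introns of their host and most small nucleolar RNAs guide chemical modification of other RNAs. *AF357359* had the highest level of them per kilobase, with 154 and 136 reads at 2.8 mM against 337 and 247 at 16.8 mM. Its entry is only 29 bases long, beside 70 for *DQ267102*, which raises its level per kilobase. *DQ267102* held 172 and 126 reads at 2.8 mM against 303 and 216 at 16.8 mM. *AF357425* held the fewest, 15 and 13 reads at 2.8 mM against 36 and 31 at 16.8 mM. No 16.8 mM library overlapped a 2.8 mM library for any of the 7, as was so for 59.3% of all genes with a read. Log2 changes of the 7 were between 0.73 and 1.15.

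The stretch between *Rian* and *Mirg* looked different. Of its 28 hairpins, 21 held fewer reads in both libraries at 16.8 mM than in either at 2.8 mM and 2 held more, but no hairpin there held more than 8 reads in a library, and only 4 reached the minimum for a test. *Mir299b* was lower (log2 change -1.63, limma, adjusted p 0.0282) on 8 and 2 reads against 0 and 1 reads, and *Mir134* was higher (0.46, adjusted p 0.0133) on 3 and 3 reads against 6 and 4. The first 9 hairpins of the stretch each held exactly 8 reads in replicate 1 at 2.8 mM, and 8 of them held 2 reads in replicate 2. Equal counts over neighbours mean that the entries cannot be taken as separate observations, and whether the same reads were counted at each was not tested. Between *Meg3* and *Rian*, the 15 hairpins held at most 13 reads in a library, and in reads 0 were higher and 1 was lower in both libraries at 16.8 mM. On RPKM, which is scaled to depth, 3 were higher and 2 lower there, and 2 higher and 22 lower between *Rian* and *Mirg*. Beside these counts, the groups did not overlap in RPKM, in either direction, for 59.3% of all genes with a read.

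**Figure D2:**
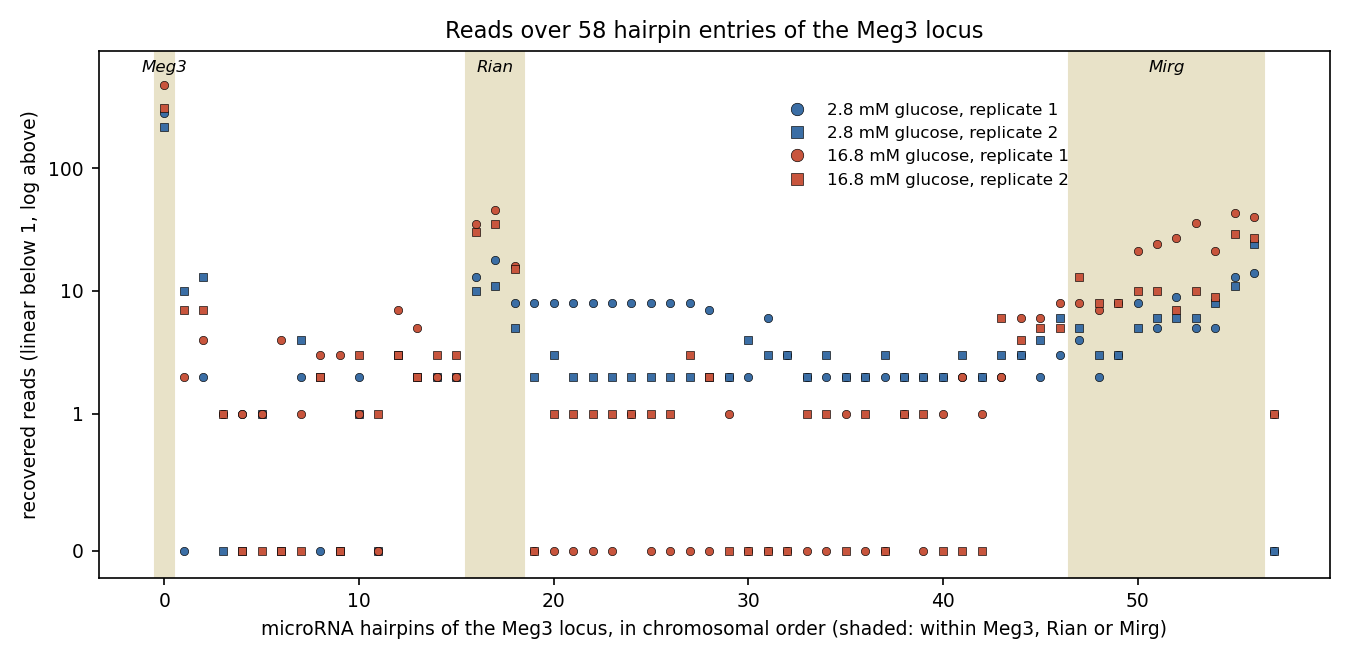
Recovered reads in each library (linear below 1, log above) over the 58 microRNA hairpin entries of the *Meg3* locus, placed in chromosomal order on the horizontal axis, with the hairpins inside *Meg3*, *Rian* and *Mirg* shaded. Inside the shaded hosts the red symbols of 16.8 mM tend to lie above the blue ones of 2.8 mM, and in the first hairpins after *Rian* replicate 1 at 2.8 mM stays at 8 reads over 9 neighbours.

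*H19* and *Igf2* lie on chromosome 7 next to *Ins2*, one of the 2 mouse insulin genes. *H19* is a maternally expressed noncoding RNA at chr7:149761434-149764048 on the reverse strand of build 37, and *Igf2*, at chr7:149836673-149852721 on the same strand, encodes a fetal growth factor of the paternal allele. *Mir675* lies inside *H19* and *Mir483* inside *Igf2*. Their hairpins are shown because they hold most of the reads of their hosts, *Mir483* in all libraries but 1, with the 2 mature microRNAs of each in capitals (RefSeq, GRCm38.p6, 5′ to 3′).
Mir675, chr7:142577064-142577147, reverse strand: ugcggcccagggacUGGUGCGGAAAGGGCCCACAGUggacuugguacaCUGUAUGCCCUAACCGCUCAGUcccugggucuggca
Mir483, chr7:142654924-142654996, reverse strand: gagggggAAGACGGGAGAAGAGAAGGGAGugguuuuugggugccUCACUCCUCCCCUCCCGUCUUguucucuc

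*H19* was at 0.929 and 1.05 RPKM at 2.8 mM and at 1.85 and 1.42 RPKM at 16.8 mM. Both high glucose libraries were above both low glucose libraries. This was a log2 change of 0.52 (SE 0.11) with an adjusted p of 0.0135 in limma, and the adjusted p was 0.115 without a minimum RPKM. These values came from 142 and 142 reads at 2.8 mM against 293 and 189 at 16.8 mM. Counted over the 84 bases of the *Mir675* hairpin were 138 and 142 of them at 2.8 mM and 292 and 188 at 16.8 mM. These were between 97.2% and 100% of the reads of the gene. Not counted over the hairpin were thus between 0 and 4 reads of *H19* in a library, at most 0.027 RPKM. The rise of *H19* and that of *Mir675* (log2 change 0.72, adjusted p 0.0173 in limma) are therefore 1 measurement.

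*Igf2* was at 0.721 and 0.788 RPKM at 2.8 mM and at 1.19 and 1.08 RPKM at 16.8 mM. The groups did not overlap, with a ratio of means of 1.51. Its log2 change was 0.38 with an adjusted p of 0.0586 in limma without a minimum, and 0.60 (SE 0.15) with an adjusted p of 0.00511 in voom, on 283 and 275 reads against 486 and 370. The *Mir483* hairpin held 190 of these reads in replicate 2 at 2.8 mM and 352 and 265 at 16.8 mM, between 69.1% and 72.4% of the gene. In replicate 1 at 2.8 mM *Mir483* was listed at 0, which allows up to 0.713 RPKM, although *Igf2* held 283 reads there. *Igf2os*, the transcript on the opposite strand, followed *Mir483* with 16 reads in that library against 199, 369 and 279 in the others. Subtracting the hairpin left 283 and 85 reads of *Igf2* at 2.8 mM and 134 and 105 at 16.8 mM. The 283 rests on the listed 0 of *Mir483*, and whether those reads lie outside the hairpin was not tested. Replicate 2 at 2.8 mM lay below both 16.8 mM libraries, so overlap of the groups depends on that 0.

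*Ins2*, the most abundant RNA of the cluster, was at 18140 and 15940 RPKM at 2.8 mM and at 30020 and 27400 RPKM at 16.8 mM, with a log2 change of 0.75 (limma, adjusted p 0.00224). Per 100000 reads of *Ins2*, *H19* held 12.5 and 16 reads at 2.8 mM against 15 and 12.7 at 16.8 mM, so the groups overlapped on that scale. *Igf2* held 24.94 and 31.0 reads at 2.8 mM against 24.92 and 24.85 at 16.8 mM, so the higher group was then 2.8 mM, by a narrow gap at replicate 1. The neighbours *Nctc1*, a noncoding RNA, and *Tnnt3*, a troponin of fast skeletal muscle, likewise held between 8.46 and 12.1 reads per 100000 in all libraries. *Th*, which encodes tyrosine hydroxylase and lies 214.1 kb on the other side, held between 78.4 and 86.8 reads. *Mrpl23*, a mitochondrial ribosomal protein, and *Cd81*, a tetraspanin, did not keep to *Ins2*. On that scale *Mrpl23* held 117.1 and 116.4 reads at 2.8 mM against 54.3 and 56.7 at 16.8 mM, and *Cd81* held 306.1 and 329 against 196.2 and 198.4. The ratios of mean RPKM were 1.66 for *H19*, 1.51 for *Igf2*, 1.62 for *Nctc1*, 1.53 for *Tnnt3* and 1.62 for *Th*, beside 1.69 for *Ins2*. The part of *Ins2* in the reads of *H19* and *Igf2* was not tested.

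**Figure D3:**
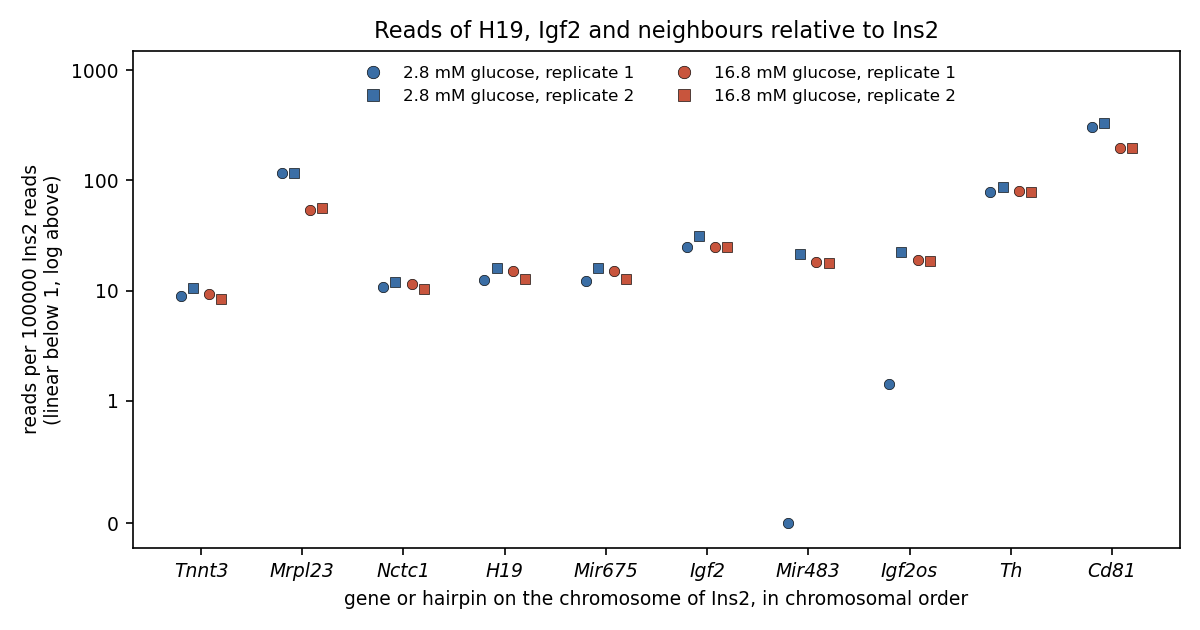
Reads per 100000 *Ins2* reads (linear below 1, log above) in each library for *H19*, *Igf2* and other genes and hairpins along the chromosome of *Ins2*. On this scale the blue 2.8 mM and red 16.8 mM symbols of *H19* overlap, both red symbols of *Igf2* lie just under its lower blue one, those of *Mrpl23* and *Cd81* lie well under the blue ones, and *Mir483* stands at 0 in replicate 1 at 2.8 mM.

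*Cdkn1c*, at chr7:150644255-150646955 farther along the same chromosome, encodes p57, an inhibitor of cyclin-dependent kinases that is expressed from the maternal allele. It was at 0.334 and 0.220 RPKM at 2.8 mM and at 0.134 and 0.131 RPKM at 16.8 mM. Both libraries at 16.8 mM were below both at 2.8 mM, but on only 53 and 31 reads against 22 and 18. This was a log2 change of -0.29 with an adjusted p of 0.149 in limma without a minimum and -1.03 (SE 0.36) with an adjusted p of 0.029 in voom. On log2(RPKM + 0.5) the change was -0.19 without replicate 1 at 2.8 mM and -0.40 without replicate 2 at 2.8 mM. At this depth the size of the fall is poorly known. Of the 15 genes of the *Igf2*, *H19* and *Kcnq1* domains, 7 were tested and 3 were higher (*H19*, *Mir675* and *Ins2*), with none lower in limma at an adjusted or unadjusted p of 0.05, where 10.7% of all transcripts were higher and 22.8% lower. Of these rises, *H19* and *Mir675* are 1 measurement. In voom 6 of 13 were higher and 3 lower, where 13% of all genes were higher and 28.4% lower. The 6 were *H19*, *Mir675* inside it, *Igf2*, *Mir483* inside it, *Igf2os* and *Ins2*, so they are not separate observations. The calls of *Mir483* and *Igf2os* (log2 changes 5.10 and 2.55, voom) include their 0 and 16 reads in replicate 1 at 2.8 mM. *Kcnq1ot1*, the noncoding RNA that silences *Cdkn1c* on the paternal allele, was at 0.238 and 0.296 RPKM at 2.8 mM and at 0.188 and 0.179 RPKM at 16.8 mM, with a log2 change of -0.53 (voom, adjusted p 0.00306). *Kcnq1*, the potassium channel gene that it overlaps, had a log2 change of -0.40 (voom, adjusted p 0.0146). *Tssc4* and *Nap1l4*, also tested, had log2 changes of 0.03 each.

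*Grb10* encodes an adaptor that binds the insulin and IGF1 receptors and dampens their signal, and it lies at chr11:11830511-11938686 on the reverse strand. It was at 0.939 and 0.859 RPKM at 2.8 mM and at 0.507 and 0.473 RPKM at 16.8 mM. The groups were far apart relative to the distance between replicates, and the level at 16.8 mM was 0.545 times that at 2.8 mM. Under the minimum for the main test, it was lower by limma without a minimum (log2 change -0.50, SE 0.05, adjusted p 0.0413) and by voom (-0.87, SE 0.10, adjusted p 2.77e-06), on 5350 and 4350 reads against 2999 and 2342. Its second entry gave -0.49. *Ddc*, its neighbour, which encodes the decarboxylase that makes dopamine and serotonin, went the other way, from 1.29 and 1.17 RPKM to 2.27 and 2.805 RPKM (log2 change 0.81, limma, adjusted p 0.00234). *Cobl*, an actin nucleator on the other side, was at 0.0419 and 0.0403 RPKM at 2.8 mM and 0.0273 and 0.024 RPKM at 16.8 mM (voom, log2 change -0.68, adjusted p 0.00148).

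*Peg3*, a paternally expressed zinc finger gene at chr7:6656603-6683132 on the reverse strand, was at 26.1 and 25.5 RPKM at 2.8 mM and at 25.9 and 25.2 RPKM at 16.8 mM. The 4 values interleaved. Its log2 change was -0.01 (SE 0.12, limma, adjusted p 0.932), and its sign turned after median centring (0.07, adjusted p 0.371) without passing. Relative to the median of all transcripts, -0.11, *Peg3* lay slightly above it. In the *Peg3* domain 4 of 6 listed genes were in the table and 2 were tested, *Peg3* and *Zim1*, of which 0 passed in limma and 1 had an unadjusted p under 0.05. *Zim1*, a maternally expressed zinc finger gene, was at 3.15 and 3.07 RPKM at 2.8 mM and at 2.71 and 2.27 RPKM at 16.8 mM (log2 change -0.27, limma, adjusted p 0.0795), and it was lower in voom (-0.32, adjusted p 0.0185). *Usp29* and *Zim3* were at or under 0.166 RPKM in every library and did not pass in voom.

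*Plagl1* encodes a zinc finger transcription factor that slows the cell cycle and is expressed from the paternal allele, at chr10:12810497-12851500. It was at 0.401 and 0.391 RPKM at 2.8 mM and at 0.364 and 0.334 RPKM at 16.8 mM. The groups did not overlap, but the difference was small. Its log2 change was -0.08 (adjusted p 0.249, limma without a minimum) and -0.18 (SE 0.12, adjusted p 0.231, voom).

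**Figure D4:**
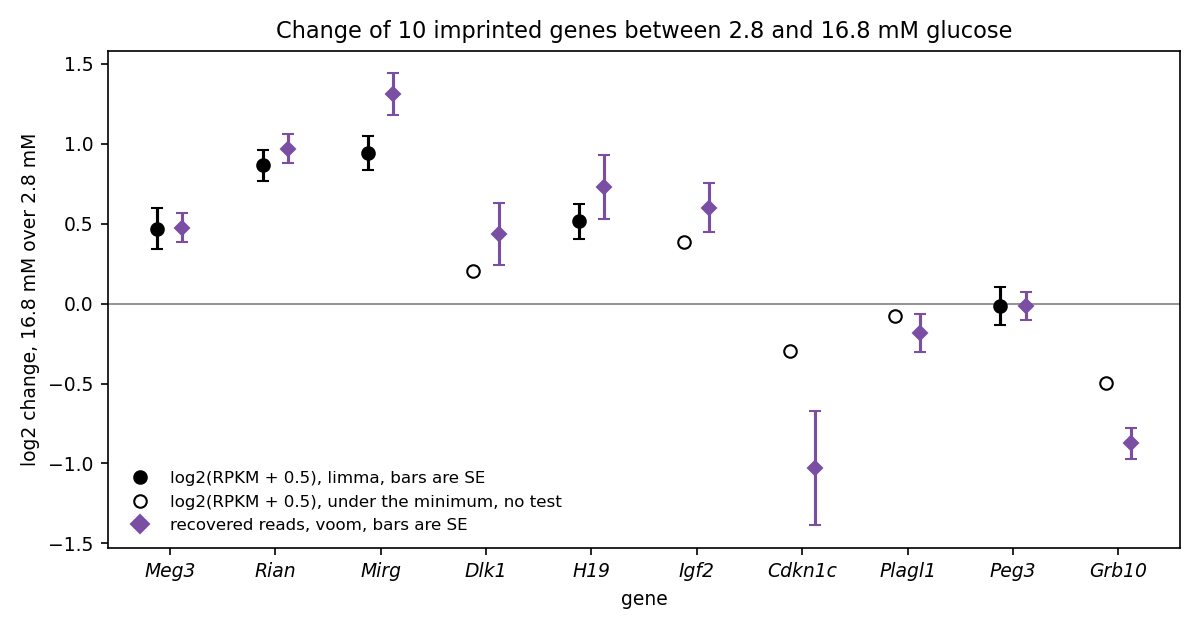
Log2 change between 2.8 and 16.8 mM glucose for the 10 genes, as limma values on log2(RPKM + 0.5) (filled circles with SE, open circles without a test for genes under the minimum) and as voom values on recovered reads (diamonds with SE). *Rian* and *Mirg* lie highest among the tested genes, *Peg3* lies at -0.01, and the genes under the minimum lie farther from 0 on reads than on log2(RPKM + 0.5).

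The genes whose pattern over the 4 libraries was most like that of *Meg3* were *Ppme1*, a methylesterase of protein phosphatase 2A, *Psmb8*, a subunit of the immunoproteasome, and *Pitpnm1*, a phosphatidylinositol transfer protein. Likeness was the root mean square distance of centred log2(RPKM + 0.5) values over 4 libraries among 6803 genes, and these distances were 0.011, 0.013 and 0.016. Among the members the nearest to *Meg3* were *Igf2* and *H19*, at 0.072 and 0.084, ahead of *Dlk1* at 0.14, *Rian* at 0.20 and *Mirg* at 0.25. The added 0.5 RPKM makes changes of genes near that level smaller, so this order may depend on it. Without it the ratios of means were 1.393 for *Meg3*, 1.345 for *Dlk1*, 1.509 for *Igf2* and 1.656 for *H19*. With 4 libraries in 2 groups, many genes can share such a pattern.

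Beyond the domains of the members, 36 other imprinted genes were listed, of which 18 were tested, 6 higher and 1 lower at 16.8 mM in limma, with a median log2 change of 0.24 beside -0.11 over all transcripts, of which 10.7% were higher and 22.8% lower. *Inpp5f*, a phosphoinositide phosphatase, went from 0.924 and 0.851 RPKM to 2.34 and 2.17 RPKM (log2 change 0.99, adjusted p 0.000461 in limma), and reached the minimum only through 16.8 mM. *Nespas*, the antisense RNA of the *Gnas* cluster, went from 1.41 and 1.15 RPKM to 3.13 and 2.93 RPKM (0.99, adjusted p 0.000906). *Rasgrf1*, a Ras exchange factor, went from 10.3 and 9.37 RPKM to 16.9 and 15.6 RPKM (0.70, adjusted p 0.00578). In these 3 genes the groups were well apart. *Nap1l5*, a nucleosome assembly protein, rose by 0.52 (adjusted p 0.0394). *Zrsr1*, a splicing factor gene inside *Commd1*, was lower, from 5.13 and 4.17 RPKM to 3.47 and 2.92 RPKM (-0.48, adjusted p 0.0294). *Gnas*, which encodes the stimulatory G protein alpha subunit and was the highest of this list at between 44.5 and 50.7 RPKM, had a log2 change of 0.02, and *Peg13*, *H13*, *Igf2r*, *Snrpn* and *Snurf* had changes between -0.01 and 0.04. Several of these genes lie inside or opposite another (*Nap1l5* in *Herc3*, *Nespas* opposite *Gnas*, *Snurf* with *Snrpn*), and their reads may be shared.

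Of 11 genes that set or keep imprints, 3 were tested, 0 were higher and 1 was lower in limma, where 22.8% of all transcripts were lower, and no other of the 3 had an unadjusted p under 0.05. *Dnmt3a*, a de novo DNA methyltransferase, went from 4.48 and 4.32 RPKM to 3.31 and 3.09 RPKM (log2 change -0.40, adjusted p 0.0177). *Trim28*, a corepressor that protects imprints, was at 11.4 and 11.1 RPKM and then 9.69 and 8.93 RPKM (-0.26, adjusted p 0.113), and *Ctcf*, the insulator protein, had a log2 change of 0.02. In voom 3 of 9 were higher and 4 lower, against 13% higher and 28.4% lower among all genes. *Dnmt1*, the maintenance methyltransferase, was higher (0.65, voom, adjusted p 0.000118).

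Among 29 partners of the members, 12 were tested, 3 were higher and 2 lower in limma, with a median log2 change of -0.02, beside 10.7% higher, 22.8% lower and a median of -0.11 over all transcripts. *Igfbp3*, a binding protein of the insulin-like growth factors, went from 1.08 and 1.16 RPKM to 4.91 and 3.12 RPKM (log2 change 1.45, limma, adjusted p 0.00172). *Irs2*, a substrate of the insulin and IGF1 receptors, went from 0.740 and 0.670 RPKM to 2.09 and 1.87 RPKM (1.04, adjusted p 0.000453). *Irs2* reached the minimum only through 16.8 mM. *Ccnd1*, a D cyclin, rose by 0.57 (adjusted p 0.0092). *Cdk4*, its kinase, went from 29.5 and 27.9 RPKM to 19.9 and 17.5 RPKM (-0.61, adjusted p 0.0123), and *Trp53*, which encodes p53, had a log2 change of -0.43 (adjusted p 0.0141). The receptors that *Grb10* binds lay under the minimum. *Igf1r* was at 0.660 and 0.632 RPKM at 2.8 mM and 1.21 and 1.16 RPKM at 16.8 mM (voom, log2 change 0.87, adjusted p 1.19e-06), and *Insr* was at 0.490 and 0.501 RPKM and then 0.266 and 0.253 RPKM (voom, -0.93, adjusted p 1.36e-06). The 2 receptors thus went in opposite directions. In voom 13% of all genes were higher and 28.4% lower. The groups did not overlap for either receptor, as was so for 59.3% of all genes with a read.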

How the data were processed

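The deposited data were RPKM values of 4 islet RNA-seq libraries in 1 table, made by the authors. The submitters' processing notes name STAR, bedtools, DESeq and mm9, which is NCBI build 37. Whether strand was used is not given in the sources used here. Depth was recovered from the steps of hairpin values, of which 98.4% to 98.8% were whole reads within 0.05, and member reads from depth and span. Spans of 6 members were tuned to give whole reads, so their reads are estimates, least sure for *Plagl1*. Reads of *Meg3*, *Rian*, *Peg3* and *Grb10* were rounded from an annotated span without that check. Identical entries were used once, which left 28047. Tests were run in R 4.3.3 by limma 3.58.1, using a trend of variance on log2(RPKM + 0.5) for means from 1 RPKM. Both limma and voom were tested on simulated data. Other steps were done in Python 3.11.15 (numpy 2.4.6, pandas 2.3.3, matplotlib 3.10.9). The members and lists were chosen with earlier results of these data known. Named were the members, genes of their domains or overlapping them, up to 4 rises and 4 falls per other list, and the 3 genes nearest to *Meg3*. *Nctc1*, *Tnnt3*, *Th*, *Mrpl23*, the other unchanged or low genes, and the motifs and hairpins shown were chosen after their values were seen. Alternatives were the scaling, pseudocount, minimum, trend, replicate block, voom, other entries and leaving out each library. No columns of other samples (0) were in the table.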

Additional observations from a re-analysis of the deposited data

How the results depend on the processing

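Each group had 2 libraries, and *Cdkn1c*, *Dlk1*, *H19*, *Igf2* and the hairpins rest on few reads. Those of *H19* were almost all counted over *Mir675*. The 2628 transcripts changed became 6553 in voom, and the 4 members changed became 2 with at least 1 RPKM in every library, which removed *Mirg* and *H19* from the test, and 7 in voom. In the imprinted lists, where *H19* and *Mir675* count separately, the 14 genes changed became 7 without a minimum and 28 in voom. Voom tests more genes of low RPKM. With 1 library left out, these counts ranged from 1825 to 2579, from 3 to 4 and from 12 to 15, where the lone library of a group is assumed to vary like the others. Replicate numbers are shared between groups, but the islets were 1 pool and nothing says whether same-numbered libraries were handled together. The main fit therefore did not pair them, and whether they share a replicate effect was not tested. Deviations of same-numbered libraries correlated at 0.31 over 7867 transcripts. With the replicate block 4067 transcripts, 4 members and 19 listed imprinted genes passed, and in voom with the replicate block 8825, 8 and 32, with *Dlk1* (0.42, adjusted p 0.0168) as the member added to the 7 of voom. The log2 changes of the ratios *Rian* to *Meg3*, *Mirg* to *Meg3*, *Mirg* to *Rian* and *Meg3* to *Dlk1* were 0.40, 0.47, 0.075 and 0.27 with 0.5 RPKM added, beside 0.49, 0.83, 0.33 and 0.04. With 1 library left out they ranged from 0.47 to 0.52, 0.66 to 0.996, 0.19 to 0.48 and -0.16 to 0.24. The last ratio turned negative without replicate 1 at 2.8 mM (-0.16) and without replicate 2 at 16.8 mM (-0.05). *Rian* and *Mirg* passed under each setting in which they were tested, and *H19* under all but the one without a minimum. The cause of the other changes was not tested.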
